A study of Mus musculus with 2 samples.

Results

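The replication-dependent histone genes encode the linker histone H1 and the core histones H2A, H2B, H3 and H4. Members were chosen as the annotated genes whose symbol starts with Hist1h, Hist2h, Hist3h or Hist4h and that have a protein-coding transcript. This gave 67 of 55536 genes, namely 6 H1, 18 H2A, 18 H2B, 12 H3 and 13 H4 genes. No measured value and no expression filter entered the choice. The symbols also number 4 gene clusters, with 54 members in cluster 1, 10 in cluster 2, 2 in cluster 3 and 1 in cluster 4.

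The study holds 1 group of 2 libraries, biological replicates 1 and 2, of bone marrow-derived macrophages (BMDM) of the inbred mouse strain C57BL/6J. Both libraries come from cells exposed for 12 h to Lipid A (100 ng/ml), the lipid portion of lipopolysaccharide and a ligand of Toll-like receptor 4. The cells then spent 12 h without it and received 100 ng/ml again for 30 min. Nucleoplasmic RNA, freed of ribosomal RNA, was sequenced from a starting quantity of 1 µg (replicate 1) or 500 ng (replicate 2). Per the labels, each replicate has its own biosample and both carry 1 donor identifier. No source used here names separate mice or cultures, and the spread may be partly technical. Age and sex were not collected, and no untreated, once-treated or whole-cell sample was analysed here. With 1 group there is no test between conditions and no p-value.

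Replication-dependent histone genes supply new chromatin during S phase, when DNA is copied. Their mRNAs as a rule lack introns and end without a poly(A) tail. A short hairpin near the 3′ end is bound by the stem-loop binding protein SLBP, and the transcript is cut just after it with the help of the U7 small nuclear RNP. Some of these genes can also give longer, polyadenylated mRNAs, which are known from differentiated cells. Depletion of ribosomal RNA keeps RNA without a poly(A) tail in the library.

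The hairpin is shown first, since it is the feature that these genes share and that sets their 3′ ends. A search of the annotated GENCODE M21 transcripts for 16 bases that form a stem of 6 base pairs, opening with GG, and a loop of 4 bases, opening with TTT, found it in 44 of the 67 members. The same search found it in 35 of 55383 other genes (0.0632%). The 44 members held 6 spellings, and 1 gene is given for each below, with the hairpin in capitals and up to 7 bases on each side in lower case, 5′ to 3′ as DNA letters.
Hist3h2a: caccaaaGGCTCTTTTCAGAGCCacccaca
Hist1h4m: aactaaaGGCCCTTTTCAGGGCCatc
Hist1h2bb: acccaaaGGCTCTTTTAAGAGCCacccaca
Hist1h4i: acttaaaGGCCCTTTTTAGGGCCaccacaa
Hist1h4j: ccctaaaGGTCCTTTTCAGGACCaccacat
Hist2h2ac: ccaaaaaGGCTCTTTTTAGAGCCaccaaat
Hist1h2bb, Hist1h4j and Hist2h2ac were picked as examples of their spelling and not for their level. The spelling of Hist3h2a was that of 26 members of the H1, H2A, H2B and H3 types, and the spelling of Hist1h4m was that of 7 H4 genes. The stem letters split by type: the 33 H1, H2A, H2B and H3 members with a hairpin all had the stem GGCTCT, whereas the 11 H4 members had GGCCCT in 9 genes and GGTCCT in 2.

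Levels of most histone genes were low. Of the 67 members, 23 (34.3%) reached 1 TPM (a level per effective transcript length, scaled to a fixed total per library) in both libraries, whereas 41.9% of all 22028 protein-coding genes did. The share of the members lay below that background. In neither library did 32 members reach 1 TPM, and 4 members were listed at 0 in both: Hist1h1t, Hist1h2aa, Hist1h2ba and Hist1h2ao. Hist1h1t, Hist1h2aa and Hist1h2ba encode histones known from the testis. The median member had 0.92 TPM in replicate 1 and 0.85 TPM in replicate 2, against 0.28 and 0.33 TPM for all protein-coding genes, many of which are listed at 0. All members together held 149.76 TPM in replicate 1 and 126.34 TPM in replicate 2, which is 0.0150% and 0.0126% of the TPM of all genes. By the read-based TPM of the same libraries the direction was the opposite, although the members' read-based counts also fell, with 4461 and 3867. There the members summed to 69.9 TPM in replicate 1 and 86.8 TPM in replicate 2, with medians of 0.491 and 0.679 TPM. The small nuclear RNA gene Rn7sk alone held 31.7% and 30.6% of the TPM of all genes, and TPM values of all other genes are relative to that total. All protein-coding genes together held 20.4% of it in replicate 1 and 30.0% in replicate 2. By read-based TPM they summed to 115013 and 225889. The make-up of the total thus differed between the libraries, which limits comparison of TPM sums. In bulk RNA, fewer cells that express a gene and less RNA per cell cannot be told apart.

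**Figure D1:**
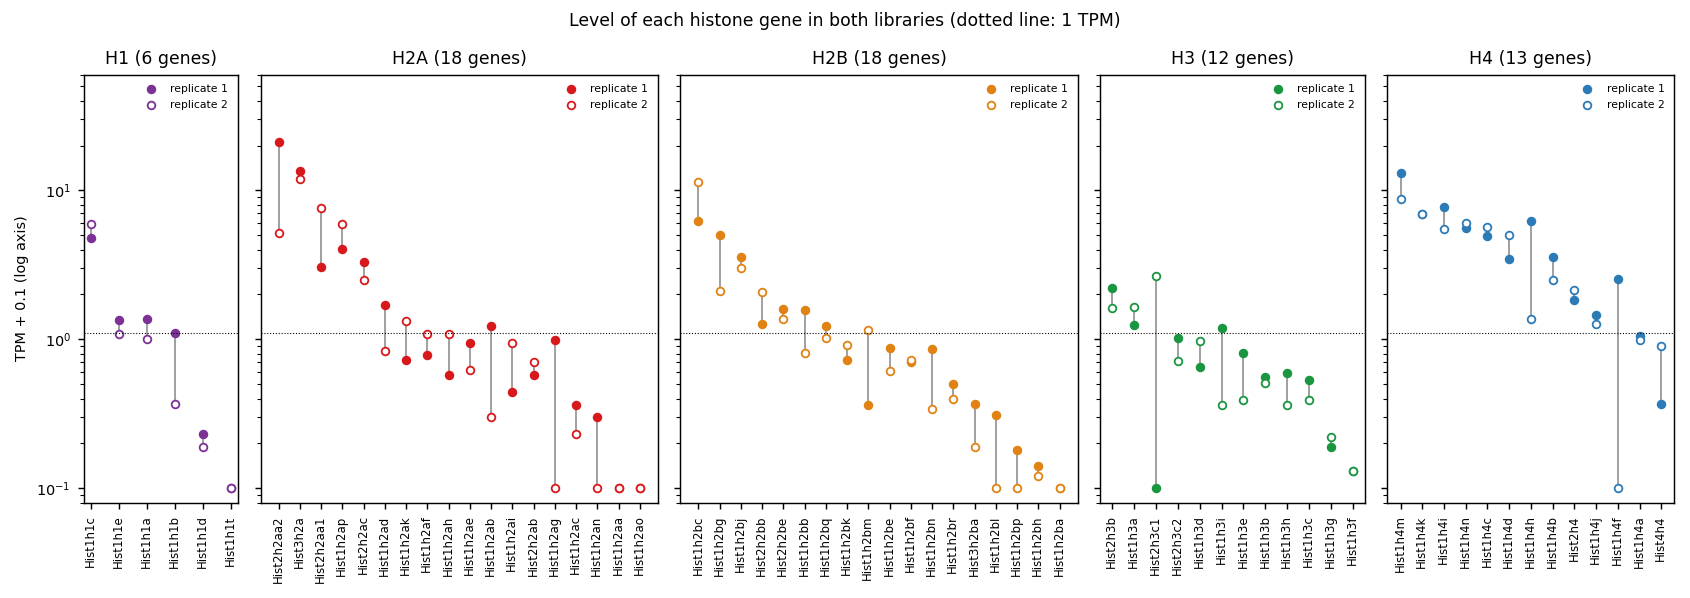
Level of each of the 67 histone genes in replicate 1 (filled) and replicate 2 (open), as TPM + 0.1 on a log axis, by histone type and ordered by mean level. The dotted line marks 1 TPM. H4 has 10 of 13 genes at or above the line in both libraries and H3 has 2 of 12.

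Few reads stand behind these levels. The libraries held 23846021 (replicate 1) and 20675305 (replicate 2) counts of genes, of which 3409 and 2451 belonged to members. Fewer than 10 counts in both libraries were assigned to 27 members, and 4 members had 100 or more in both. A count of 0 allows up to 3 counts, which is 0.126 CPM (counts scaled to library size) in replicate 1 and 0.145 CPM in replicate 2, for counting error only. All 10 macrophage markers reached 1 TPM in each library (among them Lyz2, Adgre1 and Csf1r), with 2700 and 4341 TPM summed. None of 12 markers of other cell types did, with 2.08 and 3.32 TPM summed. Of these, Pecam1 (0.90 and 1.21 TPM) and S100a8 (0.50 and 1.16 TPM) passed 1 TPM in replicate 2 alone, Kit had 0.40 and 0.42 TPM, and Cd3e and Ly6g were at 0 in both. By the read-based estimates Pecam1 reached 1 TPM in both libraries, with 1.81 and 6.29 TPM. The markers of other cell types there summed to 3.12 and 8.60 TPM, and the macrophage markers to 1196 and 2761 TPM.

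By type, H4 had the largest share of genes with a level. Genes that reached 1 TPM in both libraries were 10 of 13 H4 genes, 5 of 18 H2A genes, 5 of 18 H2B genes, 2 of 12 H3 genes and 1 of 6 H1 genes. The median H4 gene had 3.47 TPM in replicate 1 and 2.41 TPM in replicate 2. The other medians were 1.13 and 0.585 TPM for H1, 0.765 and 0.795 TPM for H2A, 0.695 and 0.67 TPM for H2B, and 0.52 and 0.35 TPM for H3. In each library the H4 median was therefore the highest of the 5, although single genes of other types were higher. Summed levels were 57.5 and 45.8 TPM for H4 and 52.0 and 38.9 TPM for H2A, so these 2 types held most of the TPM. H2B summed to 23.9 and 24.7 TPM, H1 to 8.37 and 8.13 TPM, and H3 to 8.03 and 8.78 TPM. The sums of H1, H2B and H3 differed by less than 1 TPM between the libraries, and those of H2A and H4 by more than 10 TPM. By the read-based estimates the sum of every type was higher in replicate 2, with 23.3 and 26.1 TPM for H2A and 26.9 and 32.5 TPM for H4. Read-based counts were nonetheless lower in replicate 2 for both types, with 1741 and 1302 for H2A and 992 and 961 for H4. The fall of the H2A and H4 sums in TPM therefore depends on the kind of estimate. Within the read-based values the direction depends on the unit, TPM or counts.

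H1 binds the linker DNA between nucleosomes. Hist1h1c, which encodes a somatic H1 subtype, led this type with 4.72 TPM in replicate 1 and 5.88 TPM in replicate 2, or 5.30 ± 0.820 TPM (SD, n = 2). It rested on 244 and 219 counts, and 8.54% of its stretches of 50 bases also occur in another gene. Hist1h1e had 1.25 and 0.99 TPM and Hist1h1a had 1.26 and 0.90 TPM. Both were below Hist1h1c in each library, with no overlap. Hist1h1b had 1.01 TPM in replicate 1 and 0.27 TPM in replicate 2, on 20 and 4 counts.

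Of the H2A genes, which form dimers with H2B in the nucleosome, Hist2h2aa2 had the highest mean, but its libraries lay far apart. It had 20.9 TPM in replicate 1 and 5.05 TPM in replicate 2, or 13.0 ± 11.2 TPM (SD, n = 2). Hist3h2a was close between the libraries, with 13.4 and 11.9 TPM, or 12.7 ± 1.10 TPM (SD, n = 2). It also had the most counts of all members, 999 and 636, which is 29.3% and 25.9% of the members' counts. The third, Hist2h2aa1, had 2.98 and 7.47 TPM and moved the opposite way to Hist2h2aa2. Hist3h2a lies at chr11:58954685-58956830 (mm10, plus strand) and shares up to 708 bases in a row with exons of Trim17 on the same strand, which itself had 83.6 and 94.0 counts. Reads in that stretch cannot be assigned by sequence to either gene.

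Among the H2B genes, Hist1h2bc led with 6.13 TPM in replicate 1 and 11.3 TPM in replicate 2, on 220 and 293 counts. Hist1h2bg had 4.94 and 2.01 TPM and Hist1h2bj had 3.48 and 2.90 TPM. Hist1h2bc was above both in each library. Its annotated transcript, 1156 bases long over a gene of chr13:23684199-23692908 (mm10, plus strand), is one of those without a complete hairpin.

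H3 and H4 form the tetramer at the core of the nucleosome, and the H4 genes of the series had the higher levels. Hist1h4m had 12.9 TPM in replicate 1 and 8.62 TPM in replicate 2. Hist1h4k was listed at 6.84 TPM in both libraries, on 24.3 and 18.8 counts over an annotated transcript of 312 bases, so its TPM rests on few counts. Hist1h4i had 7.67 and 5.38 TPM on 148 and 76 counts. No H3 gene came near these: Hist2h3b had 2.11 and 1.52 TPM, Hist1h3a had 1.14 and 1.54 TPM, and Hist2h3c1 had 0 and 2.57 TPM. All 3 H4 genes were above all 3 H3 genes in each library.

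**Figure D2:**
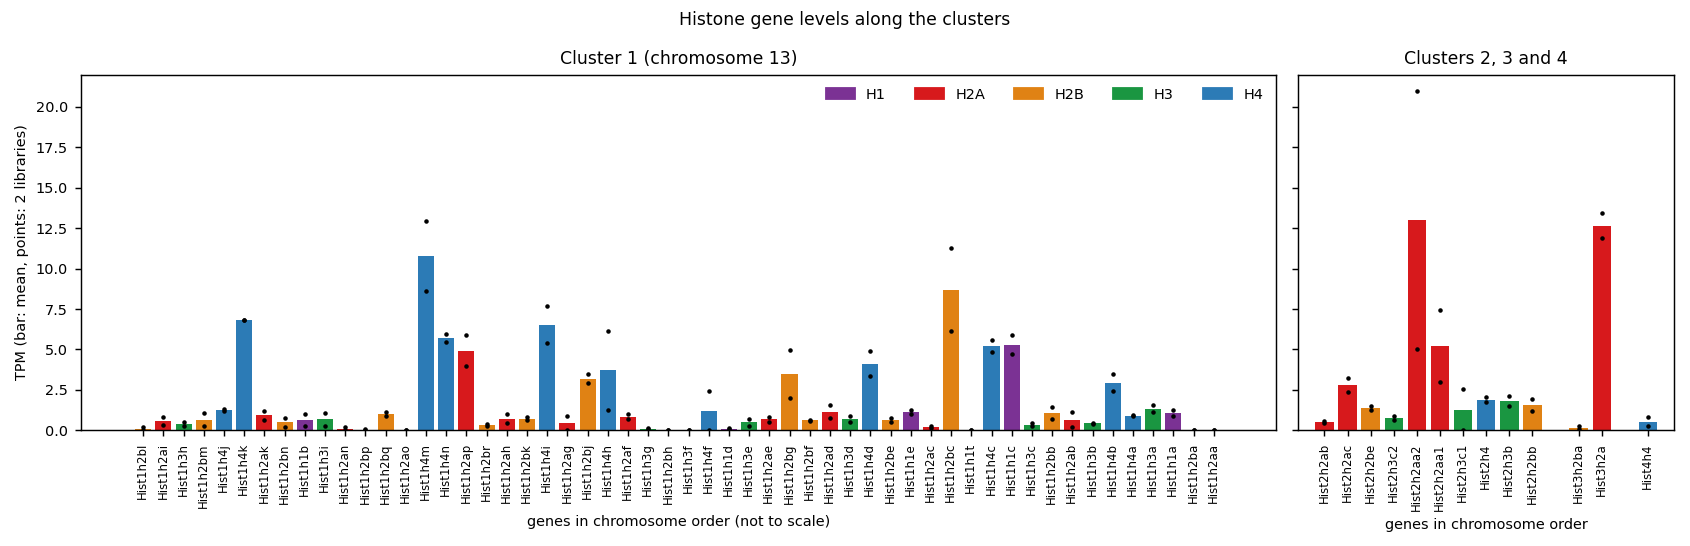
Mean TPM of each histone gene (bars, coloured by type) with both libraries (points), in chromosome order and not to scale. The tallest bars stand in cluster 2 (Hist2h2aa2), cluster 3 (Hist3h2a) and cluster 1 (Hist1h4m).

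By cluster, the members were spread unevenly. Cluster 1 (chr13:21715763-23934851, mm10) had 15 of 54 members that reached 1 TPM in both libraries and summed to 101 and 88.1 TPM. Cluster 2 (chr3:96219865-96270132) had 7 of 10 and summed to 35.0 and 25.5 TPM. The 3 members of cluster 2 that overlap no other gene summed to 4.04 TPM, against 30.3 TPM for all 10 (means of both libraries). Besides the overlaps at Hist2h2aa1 and Hist2h2aa2, Hist2h3b and Hist2h2bb lie wholly within the antisense gene Gm20628 (78.7 and 23.1 counts). Cluster 3 (chr11:58948920-58956830) had 1 of 2 and summed to 13.7 and 12.0 TPM, nearly all of it Hist3h2a. Cluster 4 (chr6:136801553-136804415) is Hist4h4 alone, with 0.27 TPM in replicate 1 and 0.80 TPM in replicate 2. Cluster 1 held 67.3% and 69.7% of the members' TPM, but 51.8% and 53.0% of their counts. Most of the H4 level was in cluster 1, with 55.5 and 43.0 TPM over 11 genes. The H2A level, in contrast, was mostly outside it: 13 H2A genes of cluster 1 summed to 11.0 and 11.5 TPM, 4 of cluster 2 to 27.6 and 15.5 TPM, and Hist3h2a of cluster 3 had 13.4 and 11.9 TPM.

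Many H2A and H2B genes stand in divergent pairs, which start back to back. There were 12 pairs of members on opposite strands less than 500 bases apart, all of them of 1 H2A and 1 H2B gene, with 176 to 306 bases between them (median 259.5). Of all members, 34.3% reached 1 TPM in both libraries, and of the H2A and of the H2B genes 27.8% each. Both partners reached 1 TPM in each library in 1 pair, 1 partner did in 4 pairs and neither in 7. The 1 pair was Hist2h2ac, with 3.21 and 2.39 TPM, and Hist2h2be, with 1.51 and 1.26 TPM. In the pair that holds Hist1h2bc (6.13 and 11.3 TPM), its partner Hist1h2ac had 0.26 and 0.13 TPM. These pairs were picked for their values. The tally also rests on counts divided among near copies. Hist1h2bq and Hist1h2ao form a pair, and so do their near copies Hist1h2br and Hist1h2ap, so the class of these pairs is uncertain.

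The annotated transcripts differ in where they end, and this decides how much length a count is divided by. In 22 members the annotated transcript runs on for more than 100 bases past the hairpin, in 21 it ends within 100 bases of it, in 13 it has untranslated sequence but no complete hairpin, and in 11 it is the coding sequence only. Each gene was classed by its longest protein-coding transcript, so Hist1h2bp, whose shorter transcript has the hairpin, is among the 13. The 22 members with transcripts that run on held 62.7% of the members' counts in replicate 1 and 65.2% in replicate 2, but 32.1% and 36.7% of their TPM. The 21 members that end at the hairpin held 20.9% and 14.6% of the counts and 49.2% and 38.3% of the TPM. Hist3h2a alone held 999 and 636 of the counts of the genes that run on. Without it, an alternative chosen after seeing the data, the other 21 held 47.3% and 53.1% of the remaining counts and 25.4% and 30.1% of the TPM. In Hist3h2a, 1643 bases follow the hairpin, and in Hist1h1c 840 bases. In Hist1h4m 3 bases follow it. The files give no position of reads within a transcript, so reads past the hairpin cannot be counted. For 2 members without a complete hairpin the last letters of the annotated transcript match the start of one, over 15 of its 16 bases in Hist1h1a and over 7 in Hist2h3b.

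**Figure D3:**
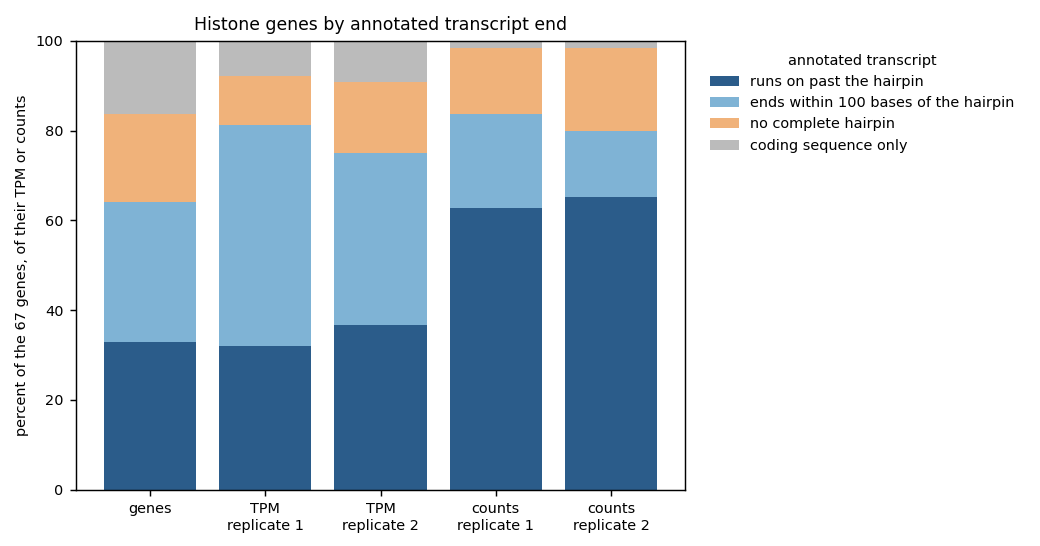
Share of the 67 histone genes, of their summed TPM and of their summed counts in each library, by where the annotated transcript ends. The genes that run on past the hairpin hold 32.1% and 36.7% of TPM and 62.7% and 65.2% of counts.

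Upstream sequence of 62 members matched RefSeq promoters (build GRCm38.p6, 250 bases before to 50 after the start), of which 52 had a start within 50 bases of the annotated one. Patterns of letters known from histone promoters were searched on both strands. TATAAA was found in 56.5% of member promoters and 13.6% of all 32851 promoters, CCAAT in 85.5% and 37.4%, and the octamer ATTTGCAT in 13 of 62 and in 1.74% of all. Another pattern, TTTGGCGC, was in 0 of 62 member promoters and 0.514% of all. CCAAT was in every H1, H2A, H2B and H3 promoter matched but in 3 of 12 H4 promoters. ATTTGCAT was in 7 H2A and 6 H2B promoters and in no other type. No pattern contains another, and a match is not a binding site. The last 150 bases before the start are printed for Hist3h2a, Hist1h4m and Hist1h1c, each among the highest of its type, in the direction of the gene, with matches on either strand in capitals.
Hist3h2a, chr11:58954535-58954684, plus strand: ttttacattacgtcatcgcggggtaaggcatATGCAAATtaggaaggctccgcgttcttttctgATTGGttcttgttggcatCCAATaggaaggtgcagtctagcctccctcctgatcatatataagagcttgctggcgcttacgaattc
Hist1h4m, chr13:21811596-21811745, plus strand: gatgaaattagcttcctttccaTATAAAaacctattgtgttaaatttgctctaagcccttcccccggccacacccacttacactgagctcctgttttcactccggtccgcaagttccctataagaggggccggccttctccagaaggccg
Hist1h1c, chr13:23738657-23738806, plus strand: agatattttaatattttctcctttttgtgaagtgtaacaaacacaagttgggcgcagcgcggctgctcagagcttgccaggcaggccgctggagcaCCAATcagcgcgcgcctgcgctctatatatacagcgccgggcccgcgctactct
Hist3h2a holds the octamer, on the reverse strand, and CCAAT on both strands, Hist1h4m holds TATAAA and no CCAAT, and Hist1h1c holds CCAAT. The members with TATAAA numbered 35, of which 9 reached 1 TPM in both libraries, and those without it 27, of which 10 were.

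Between the libraries, the histone genes were lower in replicate 2 more often than higher. The ratio used is log2 of the TMM-scaled count in replicate 2 over that in replicate 1, and 37 members had 10 or more counts on average. Of these, 9 were higher and 28 lower, whereas of all 15051 genes at that minimum 7339 were higher and 7712 lower. The median ratio was -0.65, against -0.01 over all those genes. With read-based counts (45 members) the median was -0.30 and with TPM -0.28. Setting the 1 member at 0 counts in a library (Hist2h3c1) to its bound could not move the first median, since its ratio stays the highest. Beyond 2-fold, 3 members (8.11%) were higher and 8 (21.6%) lower, against 3.57% and 5.16% of all genes. Most members have low counts, so genes of like counts are the closer background. In the range of 10 to 100 mean counts, 3 of 29 members (10.3%) were higher and 7 (24.1%) lower, against 7.1% and 11.1% of 5392 genes, with medians of -0.72 and -0.08. The exact Clopper-Pearson 95% interval, which covers counting error only, excluded 0 for 4 members that were higher and 14 that were lower. The same was not counted over all genes, whose counts differed by a chi-square of 113 per gene, well above sampling noise. These intervals therefore do not set the members apart from other genes. Over the summed counts of all members the ratio was -0.29. With 1 library on each side there is no replicate check, and the members share reads with each other.

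The 4 lowest ratios belonged to Hist1h4h (57.3 counts in replicate 1 and 8.88 in replicate 2, ratio -2.42), Hist2h2aa2 (242 and 43.5 counts, -2.29), Hist1h1b (20 and 4 counts, -2.01) and Hist1h2bg (74.3 and 22.3 counts, -1.54). The 4 highest were Hist2h3c1 (0 and 115 counts), Hist4h4 (28 and 59 counts, 1.25), Hist2h2aa1 (41.0 and 76.2 counts, 1.07) and Hist1h2bc (220 and 293 counts, 0.60). Against a floor of 3 counts Hist2h3c1 was 43.7-fold higher in replicate 2, but that floor covers counting error only. All its stretches of 50 bases also occur in Gm20634, so its 0 is an estimate and 43.7-fold is no lower limit. Its TPM credibility bounds were 0.0179 to 0.584 in replicate 1 and 1.44 to 3.62 in replicate 2. With read-based counts Hist1h1b (27 and 21 counts, ratio -0.39), Hist2h2aa1 (0.24) and Hist4h4 (0.93) were within 2-fold, and Hist1h4h (-1.31), Hist2h2aa2 (-1.62) and Hist1h2bg (-1.54) stayed beyond it. Of these 8, Hist2h2aa2, Hist2h2aa1 and Hist2h3c1 stand in the same stretch of cluster 2. The 28 genes of a list of S phase and DNA replication had a median ratio of 0.14, with 16 higher, 12 lower and 0 beyond 2-fold.

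**Figure D4:**
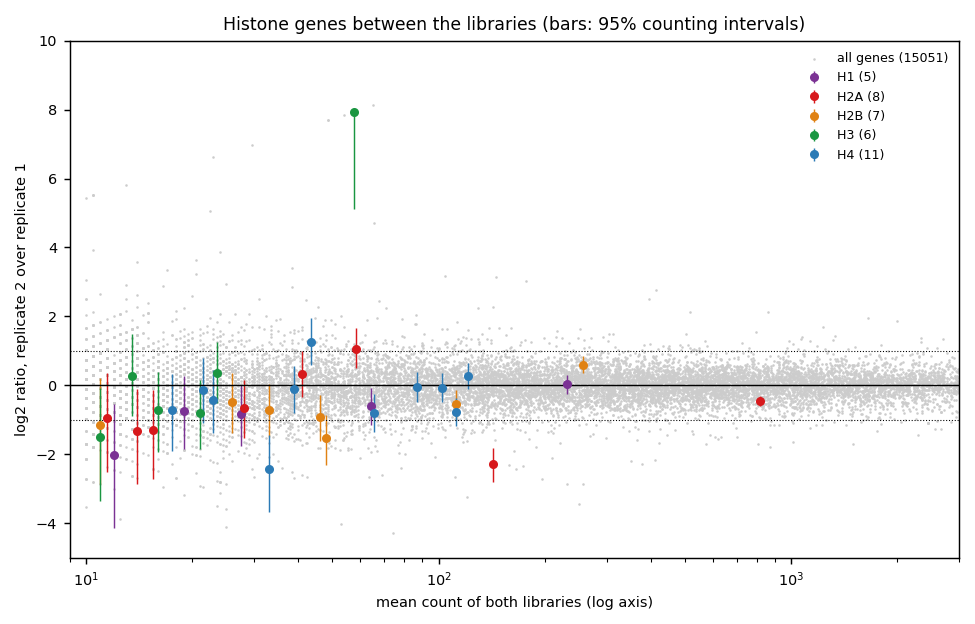
Log2 ratio of replicate 2 over replicate 1 against mean count (log axis) for the 37 histone genes with at least 10 counts on average, coloured by type with 95% counting intervals, over all 15051 genes (grey). Dotted lines mark 2-fold, and 1199 genes lie outside the axes. Hist2h3c1 at the top had 0 counts in replicate 1, so its interval has no upper bound.

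Copies share their reads. Of the 67 members, 63 share at least 1 stretch of 50 bases, read on either strand, with another gene, 34 share 50% or more of their stretches and 6 share all, so the division of counts among them is an estimate. All stretches of Hist2h2aa2 also occur in Hist2h2aa1, and all of Hist2h2aa1 occur in Gm20633, which lies antisense to it. Together they had 283 counts in replicate 1 and 120 in replicate 2, a ratio of -1.05, whereas each alone had ratios of 1.07 and -2.29. Their exons overlap the antisense genes Gm20633 (110 and 184 counts) and Gm20632 (167 and 109 counts), and Hist2h3c1 lies within Gm20634 (283 and 253 counts) on the same strand. Over these 6 genes counted together the sums were 843 and 781, a ratio of 0.08. No source used here says whether strand was counted, so a gene and its antisense partner cannot be told apart. Hist1h4m and Hist1h4n, also near copies, had 18.4 and 14.6 TPM together. In all, 24 members overlap another gene, and 8 overlap one with 10 or more counts in a library.

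Few members have more than 1 transcript. There are 5: Hist1h2be, Hist1h2bp, Hist1h2bq, Hist1h2br and Hist2h3c1. Hist1h2bq had 3, and its transcript annotated as subject to nonsense-mediated decay held 29.4% of its TPM in replicate 1 and 22.1% in replicate 2. Hist1h2be had 0.78 and 0.51 TPM, in 2 of its 3 transcripts. One of these, with 40.7% and 56.0% of its TPM, has no complete hairpin and is annotated as a processed transcript. By read-based TPM that transcript had a larger share, with 0.349 and 0.641 of the gene's 0.535 and 0.753 TPM. Hist1h2br had 0.40 and 0.30 TPM, of which its coding-only transcript held 83.5% and 99.9%. That transcript rested on 1.99 and 1.38 counts, and all its stretches also occur in Hist1h2bq. The coding-only transcript of Hist1h2bq was listed with the same counts, so these shares are an estimate. By read-based TPM the coding-only transcript of Hist1h2br had 0.0600 and 8.58e-06 of the gene's 0.0904 and 0.0184 TPM. Hist1h2bp had 0.08 and 0 TPM. All of the 2.57 TPM of Hist2h3c1 in replicate 2 was in 1 of its 2 transcripts.

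A read-based transcript table of the same libraries gave lower TPM for most members, 55 of 67 in replicate 1 and 41 in replicate 2. Its counts ran the other way, with more than the alignment-based table for 57 members in each library. The members' alignment-based counts summed to 3409 and 2451 and their read-based counts to 4461 and 3867, out of larger totals of 33095394 and 33056247. There, 17 of 67 members reached 1 TPM in both libraries, against 40.4% of protein-coding genes. Median log2 differences, alignment-based over read-based, were 0.88 in replicate 1 and 0.23 in replicate 2, close to 0.84 and 0.35 for protein-coding genes. Over the 67 members, mean TPM in the 2 kinds of table had a Spearman correlation of 0.917, as a description, since both come from the same reads. Between the replicates the correlation was 0.783. Among members at 1 TPM or above on average in either table, the 4 with the largest fold difference of mean TPM were Hist1h4m (12.9 and 8.62 TPM alignment-based, 4.68 and 4.32 TPM read-based), Hist2h2aa2 (20.9 and 5.05 TPM, 7.40 and 3.94 TPM), Hist2h3b (2.11 and 1.52 TPM, 0.640 and 0.789 TPM) and Hist2h3c1 (0 and 2.57 TPM, 0 and 0.515 TPM).

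**Figure D5:**
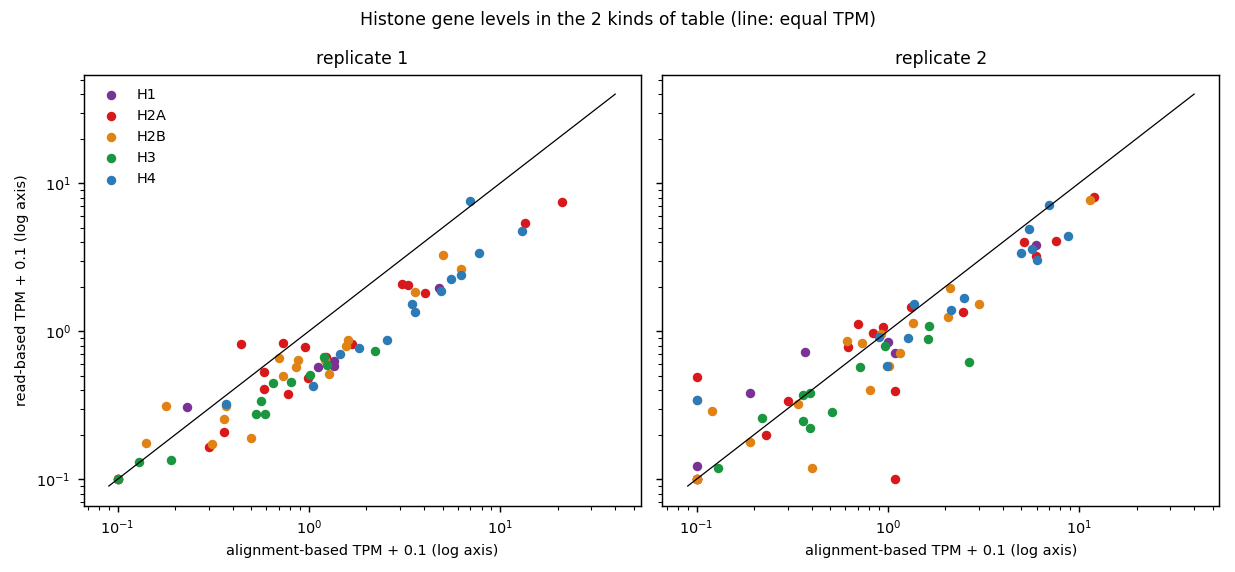
Alignment-based TPM + 0.1 (horizontal log axis) and read-based TPM + 0.1 (vertical log axis) of the 67 histone genes, coloured by type, in each library. The line marks equal TPM. Read-based TPM is the lower one, below the line, for 55 genes in replicate 1 and 41 in replicate 2.

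Genes that act on histone mRNA and histones were mostly present. Of 24 matched genes of histone mRNA processing and decay, 19 (79.2%) reached 1 TPM in both libraries, with a median of 4.64 TPM. Of all protein-coding genes, 41.9% did. The highest was Srrt, a cap-binding complex partner, with 45.7 and 34.9 TPM, then the exonuclease Xrn1 with 20.5 and 19.4 TPM, and the scaffold Sympk with 17.5 and 13.6 TPM. Slbp, chosen as the hairpin-binding protein itself, had 8.08 and 7.61 TPM. The lowest was Rnu7, the U7 RNA, listed at 0 in both libraries. Its effective length is also listed as 0 in replicate 1, so the tables give it no level. Npat, which acts at histone gene promoters, had 1.51 and 3.20 TPM and was chosen after its values were seen.

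Replication-independent variants, which are made outside S phase too, had a higher median than the replication-dependent members. Of 11, 9 (81.8%) reached 1 TPM in both libraries, against 41.9% of all protein-coding genes, with a median of 7.15 TPM. H3f3b, which encodes the variant H3.3, had 244 and 286 TPM, more than all 67 members together. H2afy had 41.0 and 35.1 TPM and H3f3a had 28.3 and 33.4 TPM. The lowest, H1fx, had 0.03 and 0.07 TPM. Of 17 histone chaperones 16 (94.1%) reached 1 TPM in both libraries. They were led by Daxx with 101 and 72.6 TPM, Atrx with 65.3 and 76.2 TPM and Npm1 with 19.0 and 46.4 TPM. The lowest was Asf1b, with 1.03 and 0.44 TPM. In the S phase list 18 of 28 genes (64.3%) reached 1 TPM in both libraries. The highest were Pcna at 18.8 and 24.2 TPM, Mki67 at 10.1 and 13.4 TPM and Tk1 at 9.87 and 10.7 TPM.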

How the data were processed

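Nucleoplasmic RNA was quantified in 2 libraries of 1 group. Per the file headers, the deposited gene and transcript tables are on mm10 with GENCODE M21. The deposited alignment-based tables hold expected counts (estimated counts that need not be whole), TPM, FPKM and TPM credibility bounds (used as a signal value), and each transcript's percent of its gene's TPM. The deposited read-based transcript tables hold estimated counts and TPM. The aligner, the counter and their versions: not given in sources used here. No columns of other samples were used.

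Gene counts were 23846021 in replicate 1 and 20675305 in replicate 2 and were rounded for ratios. Rows of transfer RNAs, spike-ins and the phage held 1.10% and 0.267% of counts and were left out. The counts of the libraries differed by a chi-square of 113 per gene over 14345 genes, well above sampling noise. Ratios used TMM factors (edgeR 4.0.16) of 0.994 and 1.01 and a prior count of 0.5. DESeq2 1.42.0 size factors were an alternative. Levels are mean ± SD (n = 2). Intervals are exact and cover counting error only, since reads lacking molecular identifiers can be copies of 1 molecule. The ratio step was tested on simulated data with sampling noise only, in which the changed genes had at least 100 counts on average. That test does not cover the low counts, shared reads or wider spread of the members.

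Named were the 3 highest members of each type, the highest of each cluster, the 4 largest ratios in each direction, the 4 largest differences between tables, every member with 2 or more transcripts and, of each gene list, the 3 highest and the lowest (the lowest of the S phase list is not reported here); others are said to be chosen after their values were seen. Members and lists were chosen with earlier results of these data known. Of 26 processing genes, 24 matched by symbol. Hairpins and shared stretches of 50 bases were searched in GENCODE transcripts, and promoters came from RefSeq.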

Additional observations from a re-analysis of the deposited data

Results flagged for a closer look

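The pseudogene Hist3h2bb-ps, which is no member because it has no protein-coding transcript, had 8 counts in replicate 1 and 5 counts in replicate 2. Both lie above the 3 counts that a count of 0 allows. It stands out as signal outside the measured set. The pseudogenes Hist1h2aj and Hist1h2al had 0 counts in both libraries.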

How the results depend on the processing

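At 0.1 TPM in place of 1 TPM, 52 of 67 members were at the minimum in both libraries, and without the members that overlap another gene it was 15 of 43. With either library alone it was 26 to 32 members, with FPKM 31, and 17 by the read-based values. The median level of members was 0.546 TPM in the read-based table, 1.16 in FPKM and 0.725 TPM without overlapping members, and 0.85 to 0.92 TPM with either library alone, against 0.77 TPM for the mean of both. The members' percent of all gene TPM was 0.00784% in the read-based table, 0.0578% of the TPM of protein-coding genes, and 0.0126% to 0.0150% with either library alone. The median log2 ratio stayed below 0 in all 8 alternatives run. It was -0.30 with read-based counts, -0.28 with TPM, and lay between -0.27 among the 8 members with at least 100 counts on average and -0.68 without members that overlap a gene with counts. Members beyond 2-fold higher numbered 0 among members with at least 100 counts on average, 1 with read-based counts, 1 without members that overlap a gene with counts and 1 among members with under 50% of their stretches shared. Those beyond 2-fold lower numbered 1 at that minimum and 5 among members with under 50% shared. The restrictions on overlap and sharing were chosen after seeing the data, and fewer genes enter them. TMM, DESeq2 and library-size scaling gave the same counts. No paired analysis was possible because there is 1 group. Precision is limited by counts, with 27 members under 10 counts in both libraries.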
